A study of Homo sapiens with 2 samples.

Results

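Tumour cells carry surface proteins that immune cells read, and 10 genes of this kind were followed here as a group. They were chosen by name, and every probe of the bead array whose platform annotation gives one of the 10 symbols was taken. This gave 18 of 47323 probes and 10 of the 20046 genes that have a named probe. The group holds the PD-1 ligands CD274 and PDCD1LG2, the B7 family member CD276, the galectin LGALS9, the nectin-like receptor ligand PVR, the phagocytosis signal CD47, the NKG2D ligands MICA, MICB and ULBP2, and the tryptophan-degrading enzyme IDO1, which is no ligand but acts on the same cells. Total RNA came from A2058, an established human melanoma cell line. The parental cells had no selection, and the drug-selected cells were the A2058 population that survived carmustine, an agent that alkylates DNA, given by the labels as 100 uM over 6 months. By the paper's account the drug was given in repeated cycles with recovery between them, at doses raised gradually up to 100 uM. Parental cells were kept in culture in parallel, and both were grown in the same medium. The array methods word their fold by suspended and adherent cells, which the labels do not name. A difference in culture mode between the arrays could therefore not be told apart from selection. Each group has 1 array, so no difference has a replicate check, none was tested, and 2 arrays are all the precision there is.

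Checkpoint ligands bind inhibitory receptors on T cells and dampen their response. NKG2D ligands are stress-inducible relatives of MHC class I molecules, and their receptor activates natural killer (NK) cells and some T cells. Interferon gamma is the classical inducer of CD274 and IDO1, through JAK kinases and IRF1. Melanoma is a tumour in which antibodies against the PD-1 pathway are in use, and melanoma cells are known to shed NKG2D ligands from their surface.

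The drug-selected array was the brighter one. Its median signal was 63.1 against 52.5 in parental cells, and the level at which a probe lies in the middle of the negative controls was 53.2 against 44.9. A probe was counted as detected at a detection p-value under 0.05, which held for 42.5% of probes on the parental array and 45.6% on the drug-selected array. Signals were background corrected and quantile normalized, log2 values of them are given, and a difference is always drug-selected minus parental. A gene was called higher or lower past 2-fold, and was represented by its brightest detected probe. As the only measure of error, probes of one gene that were detected on both arrays differed in their log2 difference with a pooled SD of 0.305 (2892 genes), which is a spread between probes and not between replicates.

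Of the 10 genes, 7 were detected and 1 of them, MICA, was past 2-fold. MICA was lower, and none was higher. The background was 7.1% higher and 5.81% lower among the 12832 genes detected on the array, and with 7 genes nothing about the group is read from a count of 1. The median log2 difference of the 7 genes was -0.26, with a range from -1.29 to 0.17, against a median of 0.00 over all detected genes. The typical size of a difference was smaller in the group (median 0.26) than over all genes (median 0.38). The probes split into 8 detected on both arrays, 1 detected in drug-selected cells only and 9 detected on neither.

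**Figure D1:**
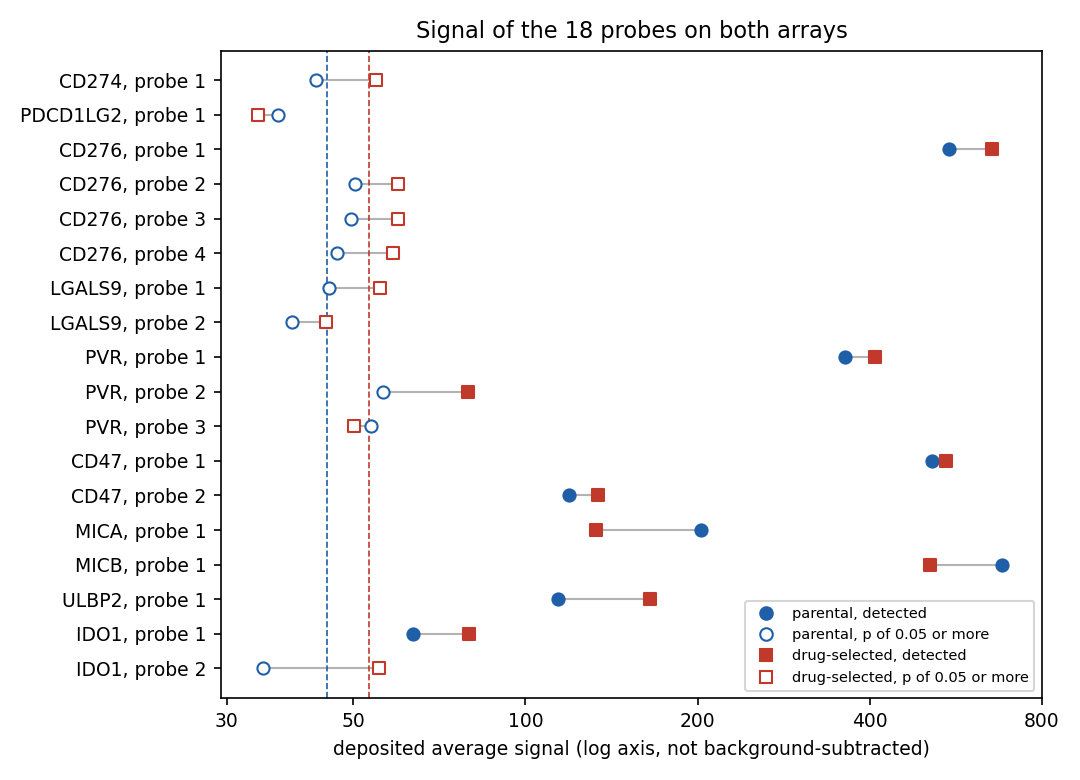
Deposited average signal of each of the 18 probes on a log axis, with a circle for parental and a square for drug-selected cells, filled where the detection p-value was under 0.05; dashed lines mark the background level of each array (44.9 and 53.2). Only the probes of MICA and MICB were detected and dimmer on the brighter, drug-selected array, and the open symbols of CD274, PDCD1LG2 and LGALS9 lie near or below the dashed lines.

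CD274, PDCD1LG2 and LGALS9 were not detected on either array. CD274 encodes PD-L1, the main ligand of the inhibitory receptor PD-1, and lies at chr9:5450542-5470554 (GRCh38.p14). Its probe had a signal of 43.0 (parental) and 54.7 (drug-selected), with detection p-values of 0.623 and 0.417. Both signals were within 2 units of the background level of their own array, which was the higher one in drug-selected cells. PDCD1LG2, the gene of the second PD-1 ligand PD-L2, follows on the same chromosome at chr9:5510531-5571282. Its signal was 36.9 (parental) and 34.1 (drug-selected), at detection p-values of 0.90 and 1.0. Both lay below the background level. LGALS9, the gene of galectin-9, a ligand of the receptor TIM-3 on T cells, lies at chr17:27631188-27649560 and has a pair of probes. The brighter one gave 45.4 and 55.7, at detection p-values of 0.471 and 0.362. The other one gave 39.0 and 44.8. No fold is given for these genes, since their probes were at background. A low RNA level and a probe that works poorly cannot be told apart here.

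The start of CD274 is shown because this window holds the letters through which interferon signals are known to reach this gene. The window runs from 250 bases before to 50 bases after the gene start, at chr9:5450292-5450591 on the plus strand (RefSeq sequence, GRCh38.p14). Capitals mark TTCNNNGAA, the letters of an interferon gamma activated site, GAAANNGAA, the core that IRF proteins bind, and GGGCGG, a GC box, each on either strand.
CD274: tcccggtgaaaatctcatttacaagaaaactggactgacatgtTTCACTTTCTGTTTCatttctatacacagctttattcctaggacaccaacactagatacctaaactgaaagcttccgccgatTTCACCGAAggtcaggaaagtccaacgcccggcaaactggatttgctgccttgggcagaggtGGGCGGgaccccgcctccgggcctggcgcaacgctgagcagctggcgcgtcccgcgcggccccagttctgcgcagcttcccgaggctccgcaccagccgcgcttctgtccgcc
TTCNNNGAA begins 125 bases before the start, a pair of overlapping GAAANNGAA matches on the opposite strand begins 207 and 201 bases before it, and the GC box 63 bases before it. Over 35116 RefSeq windows of this length, 7.66% hold TTCNNNGAA, 8.11% hold GAAANNGAA, and 15786 windows hold GGGCGG. Of 7 other genes of the group whose windows were searched, LGALS9 has 1 GAAANNGAA match and none has TTCNNNGAA, and PDCD1LG2 and IDO1 were not searched. A match is a description of the letters and does not show that a protein binds.

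Genes of the interferon receptors and the JAK-STAT route stayed mostly within 2-fold. Of 20 genes in this list, 18 have a named probe and 14 were detected. IRF1 was the 1 higher gene and JAK2 the 1 lower gene, and the list's median log2 difference was 0.08. Most genes of the array were also within 2-fold, with 7.1% of all detected genes higher and 5.81% lower. IRF1, a transcription factor that interferon gamma induces and that activates CD274, had a log2 signal of 6.17 (parental) and 7.80 (drug-selected) and was 3.10-fold higher. JAK2, a kinase of the interferon gamma receptor, went from 7.74 to 6.56 and was 2.26-fold lower. Its difference was within 2-fold in 5 of 11 alternative settings, between -1.34 and -0.74 over all of them. The authors' own normalized values were among the 5. Settings that only filter or combine probes cannot move JAK2, which has 1 probe. The receptor subunits IFNGR1 and IFNGR2 had log2 differences of -0.54 and -0.06, and SOCS1, a feedback inhibitor of JAK kinases, 0.86. The interferon genes IFNG and IFNB1 were not detected on either array. The probe of CD274 was at background on both arrays, and a link between IRF1 and CD274 was not tested.

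CD276, PVR and CD47 were detected on both arrays and differed by 1.27-fold or less at their brightest probe. CD276 encodes B7-H3, a surface protein related to PD-L1 that many tumours carry, at chr15:73683944-73714514. Its brightest probe had a deposited signal of 550.0 (parental) and 654.0 (drug-selected), or 9.23 and 9.07 on the normalized log2 scale, a difference of -0.16. The 3 other probes of CD276 were at background, with detection p-values from 0.175 to 0.395, so the level of this gene rests on 1 of 4 probes. PVR encodes CD155, a ligand of the inhibitory receptors TIGIT and CD96 and of the activating receptor CD226, at chr19:44643910-44666162. Its brightest probe had signals of 362.0 and 409.0, and its log2 signal went from 8.58 to 8.32, a difference of -0.26. The second PVR probe, annotated to another transcript of the gene, had signals of 56.3 and 79.2, and was detected in drug-selected cells only (detection p-values 0.0519 and 0.0039), at least 1.27-fold higher. The third was detected on neither array. The probes of PVR therefore differ in direction, and the dim one missed the detection limit narrowly in parental cells.

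CD47, the "do not eat me" signal that macrophages read through their receptor SIRPA, lies at chr3:108043091-108091031. Its pair of probes, both at a detection p-value of 0 on both arrays, gave close values. The first had deposited signals of 514.0 and 545.0 and a log2 difference of -0.34, and the second 119.0 and 134.0 with -0.32. Both are 1.1 times or less the spread between probes of a gene, and 54.5% of all detected genes differed by more than the brighter one. With no normalization between the arrays, the CD47 difference was 0.07, that of PVR 0.16 and that of CD276 0.24, all above 0, while the median of all genes was then 0.37. Median scaling, with an all-gene median of 0.23, put CD276 (0.11) and PVR (0.03) above 0, and the median over probes put PVR at 0.04. Relative to the all-gene median the 3 genes were below 0 in both scaling settings.

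The NKG2D ligands MICA and MICB had the largest differences of the group and were below the parental level in every setting run, while ULBP2 was above it. MICA, at chr6:31400711-31415315, had a deposited signal of 203.0 (parental) and 133.0 (drug-selected), although the latter array was the brighter one. On the normalized log2 scale it went from 7.66 to 6.36, 2.45-fold lower. Over 11 alternative settings its log2 difference lay between -1.49 and -0.86, and it was within 2-fold with median scaling, narrowly, and with no normalization between the arrays (-0.86). MICB, at chr6:31494918-31511124, had deposited signals of 681.0 and 511.0 and went from 9.55 to 8.68, which is 1.83-fold lower and within the 2-fold limit. Its log2 difference lay between -0.89 and -0.46 over the same settings. These differences are 4.2 and 2.8 times the spread between probes, and 8.01% and 16.6% of all detected genes differed by more. ULBP2, a ligand held in the membrane by a lipid anchor, lies apart from the others at chr6:149942014-149949235. Its signal was 114.0 (parental) and 165.0 (drug-selected), its log2 signal 6.61 and 6.78, and its difference of 0.17 was smaller than the spread between probes. Each of these genes has 1 probe. MICA and MICB are close relatives, and the probe sequences were not used here, so cross-binding between their RNAs was not tested.

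The starts of MICA and MICB are shown because both genes were below the parental level and their upstream sequences are much alike. The windows lie on the plus strand at chr6:31403345-31403644 for MICA and chr6:31497895-31498194 for MICB (RefSeq sequence, GRCh38.p14). Both windows begin inside the annotated span of their gene. Capitals mark GAANNTTC, the paired unit of a heat shock element, GGGCGG, and CCAAT, each on either strand.
MICA: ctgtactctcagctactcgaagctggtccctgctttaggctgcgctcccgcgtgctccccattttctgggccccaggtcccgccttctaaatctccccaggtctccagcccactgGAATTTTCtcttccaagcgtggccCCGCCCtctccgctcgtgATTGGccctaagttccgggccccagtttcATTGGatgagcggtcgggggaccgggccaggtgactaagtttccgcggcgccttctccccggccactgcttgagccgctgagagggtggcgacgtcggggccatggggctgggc
MICB: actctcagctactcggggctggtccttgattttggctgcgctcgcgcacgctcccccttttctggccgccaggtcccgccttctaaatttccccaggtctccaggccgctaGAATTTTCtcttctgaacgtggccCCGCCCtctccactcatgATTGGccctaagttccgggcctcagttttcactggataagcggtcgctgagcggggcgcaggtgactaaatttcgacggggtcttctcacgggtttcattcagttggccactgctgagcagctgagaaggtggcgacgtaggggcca
GAATTTTC begins 135 bases before the start in MICA and 139 bases before it in MICB. It is followed in both by a GC box on the opposite strand, 111 and 115 bases before the start. Next comes ATTGG, the reverse complement of CCAAT, 93 and 97 bases before the start. MICA has a further ATTGG match 64 bases before its start. Over the 284 bases that align, 86.6% are identical. GAANNTTC is held by 6.77% of all windows and CCAAT by 34.6%. Heat shock is a known inducer of both genes. HSPA1A and HSPA1B, heat shock genes beside MICA picked out after their values were seen, had log2 differences of 1.56 and 1.54. They are near-identical copies whose probes may bind both RNAs. A link of heat shock to the differences of MICA and MICB was not tested.

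Genes for the handling and shedding of these ligands were within 2-fold, with 1 exception. All 13 genes of this list were detected, with a median log2 difference of -0.12. The same held for most genes of the array, of which 7.1% of those detected were higher and 5.81% lower. The exception was MMP14, a membrane-bound metalloproteinase that cleaves MICA, which went from 6.67 to 5.18 on the log2 scale and was 2.81-fold lower. Its fold ran from 1.94 to 4.26 over 11 alternative settings and was within 2-fold in 3 of them. The sheddases ADAM10 and ADAM17 had log2 differences of -0.75 and -0.12, and PDIA6, a disulphide isomerase needed for the shedding of MICA, had -0.54. CMTM6, which keeps PD-L1 at the cell surface, had 0.16, and QPCTL, which modifies CD47 at its SIRPA binding site, -0.47. Protein at the cell surface was not measured here.

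IDO1 was at the edge of detection on both arrays. It encodes the interferon-inducible enzyme that begins the breakdown of tryptophan to kynurenine, which suppresses T cells. Its brighter probe had deposited signals of 63.6 (parental) and 79.8 (drug-selected), with detection p-values of 0.00909 and 0.0026. Its log2 signal was 5.26 and 5.25, so the difference of -0.01 was far below the spread between probes. The second probe was at background, with detection p-values of 0.957 and 0.375. The sign of the IDO1 difference changed between settings, from -0.12 to 0.30.

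Around IDO1, genes of the tryptophan and kynurenine route differed in both directions. Of 17 genes, 13 were detected. KYNU was higher, 4 genes were lower, and the median log2 difference was -0.11. Over all detected genes 7.1% were higher and 5.81% lower. KYNU, the kynureninase that cleaves kynurenine, went from 9.11 to 11.26, or 4.41-fold higher by this probe and 5.26-fold by the other. The lower genes included SLC3A2 and SLC7A5, the subunits of the transporter that brings tryptophan into the cell. SLC3A2 was 3.09-fold lower by its brighter and 4.69-fold lower by its other probe, and SLC7A5 2.59-fold lower. QPRT, which makes the NAD precursor from quinolinate, was 2.57-fold lower, and WARS1, the tryptophanyl-tRNA synthetase, 2.11-fold lower. With no normalization between the arrays, 1 gene of this list was lower in place of 4. TDO2, the other enzyme that opens the tryptophan ring, had a log2 difference of -0.07, and IDO2 and KMO were not detected.

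**Figure D2:**
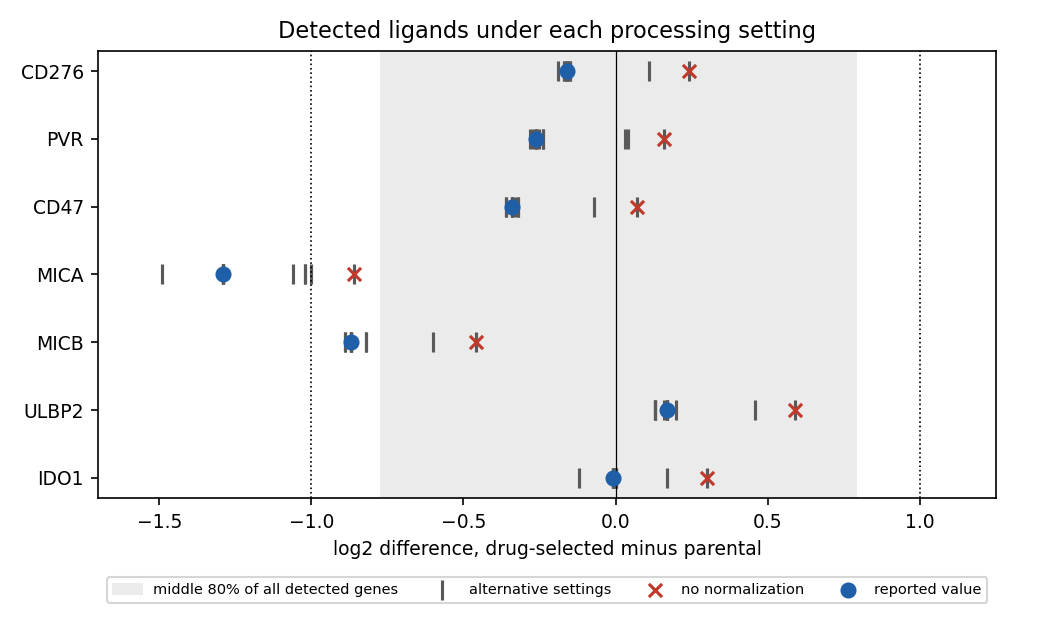
Log2 difference (drug-selected minus parental) of the 7 detected genes, with a dot for the reported value, ticks for the alternative settings and a cross for no normalization between the arrays; dotted lines mark 2-fold and the grey band holds the middle 80% of all detected genes (-0.77 to 0.79). MICA and MICB lie outside the band at their reported values, and the others lie inside it.

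Among other ligands of T cells, CEACAM1 and LGALS3 were lower and NT5E, CD70 and TNFSF9 higher. Of 27 further checkpoint and costimulatory genes, 22 were detected, and 4 of these were higher and 5 lower (median log2 difference -0.14). The shares over all detected genes were 7.1% higher and 5.81% lower. CEACAM1, an inhibitory adhesion molecule of melanoma cells that binds itself and TIM-3, went from 11.54 to 8.11 (log2 signal), 10.8-fold lower, and its other probes were lower by 10.8-fold and 11.2-fold. LGALS3, a galectin that restrains T cells, went from 12.22 to 10.28, a 3.84-fold lower level, and its other probe was 2.34-fold lower. CD200, which quiets myeloid cells, was 2.79-fold lower by 1 of its 2 detected probes, and 1.79-fold lower by the median over them. TNFRSF14, the ligand of the inhibitory receptor BTLA, was 2.63-fold lower. The butyrophilin BTN2A2 was 2.08-fold lower, and within 2-fold in 5 of 11 alternative settings. TNFRSF14, BTN2A2 and VSIR lie outside the naming rule and were named after their values were seen, as were WARS1 and the genes within 2-fold that are given from the lists.

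In the other direction, NT5E, the CD73 enzyme that makes immunosuppressive adenosine, went from 8.57 to 10.43 (log2 signal), 3.64-fold higher. The costimulatory ligands CD70 and TNFSF9 were 3.34-fold and 3.09-fold higher, from log2 signals of 4.91 and 5.09 that were close to the detection limit in parental cells. Their folds ran from 2.10 to 6.02 and from 2.05 to 4.96 over the settings. VSIR, the gene of the checkpoint protein VISTA, was detected in drug-selected cells only and was at least 1.51-fold higher, from 1.21-fold to 2.10-fold over the settings. The PD-1 ligand relatives CD80, HHLA2 and VTCN1 were not detected on either array, and CD86 had a log2 difference of -0.04.

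Other NK-cell ligands were within 2-fold apart from ICAM2. Of 21 genes, 20 have a named probe and 16 were detected, with 1 higher, none lower and a median log2 difference of -0.12. With a normexp offset of 0, and with no normalization between the arrays, 3 were higher. In the reported setting 7.1% of all detected genes were higher and 5.81% lower, so most genes of the array were also within 2-fold. ICAM2, an adhesion ligand of the leukocyte integrin LFA-1, was not detected in parental cells (detection p-value 0.829) and had a log2 signal of 9.40 in drug-selected cells, at least 22.9-fold higher. This bound depends on the setting, from 11.2-fold with a normexp offset of 50 to 48.9-fold with an offset of 0. Its relatives ICAM1 and ICAM3 had differences of 0.17 and -0.49. The relatives of ULBP2 were dim. ULBP1 was detected in drug-selected cells only, RAET1G and RAET1E had differences of 0.07 and -0.29 on both arrays, and ULBP3 and RAET1L were not detected. HLA-E, the ligand of the inhibitory NK receptor NKG2A, had a difference of -0.75, and NECTIN2, which shares its receptors with PVR, 0.28.

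**Figure D3:**
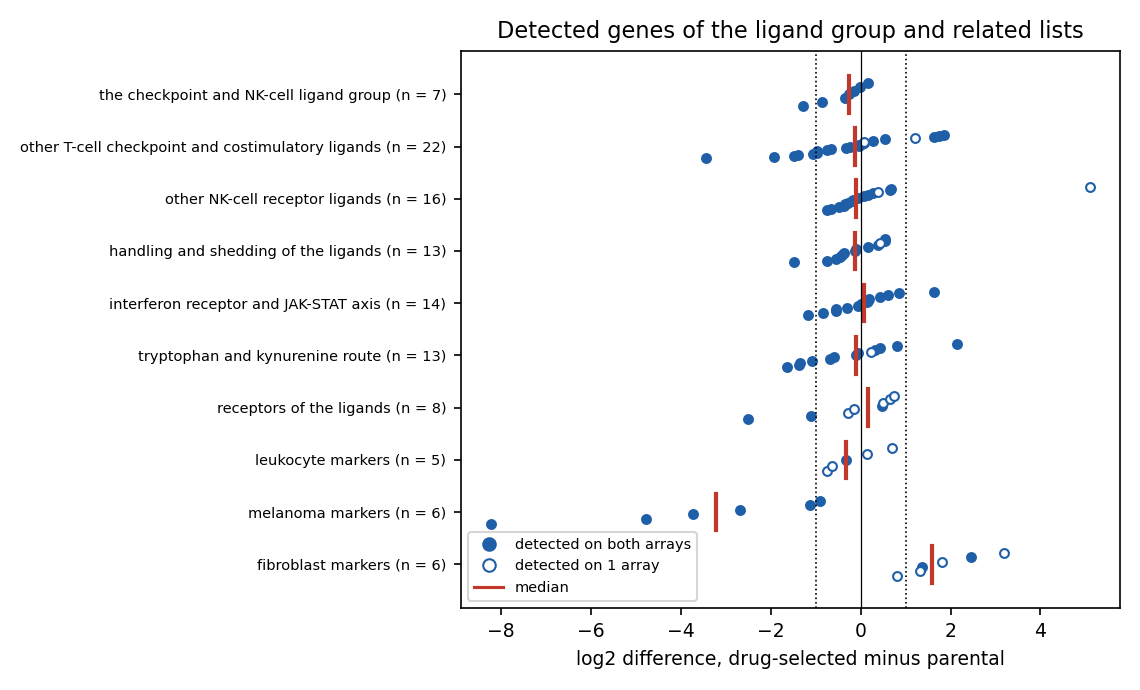
Log2 difference (drug-selected minus parental) of every detected gene in the ligand group and in the 9 related lists, filled where detected on both arrays and open where detected on 1, which are drawn at the difference of the normalized signals and not at their bound; red bars are list medians and dotted lines mark 2-fold. The ligand group lies close to 0 with MICA past the line, CEACAM1 lies lowest and ICAM2 highest in their lists, and the detected melanoma markers lie below and the fibroblast markers above 0.

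Receptors of these ligands were looked up in the same cells. Of 16 receptor genes, 15 have a named probe and 8 were detected, 2 of them lower and none higher. With a normexp offset of 0, 2 were higher. Among all detected genes 5.81% were lower and 7.1% higher in the reported setting. SIRPA, the receptor of CD47, went from 11.76 to 9.26 (log2 signal), 5.64-fold lower, with 5.33-fold by its second probe. CTLA4, an inhibitory T-cell receptor, was detected by 3 probes on both arrays, from 10.44 to 9.34 by the brightest one, 2.14-fold lower. It was within 2-fold by 1 of the 3 probes and with median scaling or no normalization between the arrays. CD96, a receptor of PVR, had log2 signals of 8.61 and 9.08, a difference of 0.47. TIGIT, HAVCR2 and HCST were detected in drug-selected cells only, at least 1.66-fold, 1.54-fold and 1.34-fold higher. Over the settings the bound of TIGIT ran from 1.26-fold to 2.44-fold. KLRK1 and KLRC1 were detected in parental cells only, near the detection limit, and no bound on their difference held in every setting. KLRD1, the partner of NKG2A, CD244, the receptor of CD48, and CD226, the activating receptor of PVR, were not detected. PDCD1, the gene of PD-1, had no probe named here.

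Leukocyte markers were at or near background. Of 16 genes, 15 have a named probe and 5 were detected, all close to the detection limit, with log2 signals of at most 5.29. PTPRC, the pan-leukocyte marker CD45, was detected on neither array (detection p-values 0.0753 and 0.283), and neither were CD3D, CD3E, CD8A, NKG7 and GNLY. CD79A was detected on both arrays with a difference of -0.33. CD2 and MS4A1 were detected in drug-selected cells only, and AIF1 and FCGR3A in parental cells only. Of these, FCGR3A was at least 1.41-fold lower, from 1.19-fold to 1.97-fold over the settings, and for the other 3 no bound held in every setting. The melanoma markers MITF, PMEL, MLANA, TYR, TYRP1 and SOX10 were all detected in parental cells, S100B was not, and DCT had no probe named here. TYR was 301-fold lower, MLANA 27.7-fold, PMEL 13.3-fold, MITF 6.44-fold by 1 of its 2 detected probes, and TYRP1 2.17-fold. The signal of TYR in drug-selected cells was just above the detection limit (log2 4.90, detection p-value 0.0208), and its fold ran from 141 to 650 over the settings. MITF was 2.85-fold lower by the median over its probes. SOX10 had -0.91, and the list's median was -3.21. Of 7 fibroblast markers, 6 were detected and 5 were higher, and the median was 1.59, or 1.36 with bounds. Among the 5 were FAP (5.51-fold), PDGFRA (2.58-fold), PDGFRB (at least 6.59-fold) and THY1 (at least 2.56-fold). The other detected probe of PDGFRA was higher by at least 1.74-fold, with a log2 difference of 0.84. THY1 encodes CD90, which the paper counts among melanoma stem cell markers and reports as increased in drug-selected cells. Over the alternative settings the bounds ran from 3.61-fold to 13.2-fold for PDGFRB and from 1.73-fold to 4.40-fold for THY1, and PDGFRA from 1.77-fold to 4.14-fold. In bulk RNA fewer cells of a type and less RNA per cell cannot be told apart, and the part of these markers in the differences of the ligands was not tested.

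The position of the members was not used to choose them. CD274 and PDCD1LG2 lie beside each other on chromosome 9, and MICA and MICB on chromosome 6 in the MHC region. In the stretch reaching 1 Mb to each side of CD274, 12 genes lying at least in part in it were detected, of which 5 were lower, none was higher and 9 were below 0, with a median log2 difference of -0.69 against 0.07 over 520 detected genes of chromosome 9. The 5 were MLANA, ERMP1 (-1.38), UHRF2 (-1.18), JAK2 (-1.18) and SLC1A1 (-1.17). Of the 520 genes of the chromosome, 27 were lower and 40 higher. Relative to all genes, the median of this stretch lay between -0.79 and -0.55 over 8 ways of background correction and normalization. Within 1 Mb of MICA, 73 genes were detected, of which 51 were below 0. The median of the 73 was -0.26. Over the 688 detected genes of chromosome 6 other than MICA, which include the 73, it was -0.17, with 71 lower and 41 higher. Of the 73, 8 were lower and 7 higher, among the latter CFB at 3.54 (from 6.6-fold to 19.7-fold over the settings), HLA-B at 1.33 and TNF, while HLA-C had -1.04. The parental array did not detect TNF, which was higher by at least 7.94-fold, with bounds from 4.23-fold to 16.2-fold over the settings. Another 2 of the higher genes and 2 of the lower ones were likewise detected on 1 array. Over 397 detected genes that start in the first 60 Mb of chromosome 6, the median relative to all genes was -0.32, and it lay between -0.39 and -0.23 over the same settings. With no normalization between the arrays the medians themselves were above 0, at 0.16 beside MICA and 0.06 over the 60 Mb, below the 0.37 of all genes. The lowest of the 10 Mb steps was that from 10 to 20 Mb, where 34 of 37 genes were below 0, with a median of -0.75. In the step from 30 to 40 Mb, which holds MICA and MICB, 67.3% of 159 genes were below 0, against 50.4% of all placed genes. This was the smallest share of the steps in these 60 Mb, which reached 91.9%. The median of the step, -0.22, was also the closest to 0, with 15 genes higher and 15 lower. The butyrophilin genes BTN2A1, BTN3A1, BTN3A2 and BTN3A3, of the same chromosome, had differences of -0.76, -0.98, -0.98 and -0.33, the last of which turned to 0.09 with no normalization between the arrays. Near the other members the medians were 0.10 for PVR, -0.03 for CD47, -0.12 for CD276, -0.13 for LGALS9, -0.08 for ULBP2 and 0.72, over 5 genes, for IDO1. These stretches were looked at after the values were seen and were not tested, and the arrays give no measure of gene copies.

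**Figure D4:**
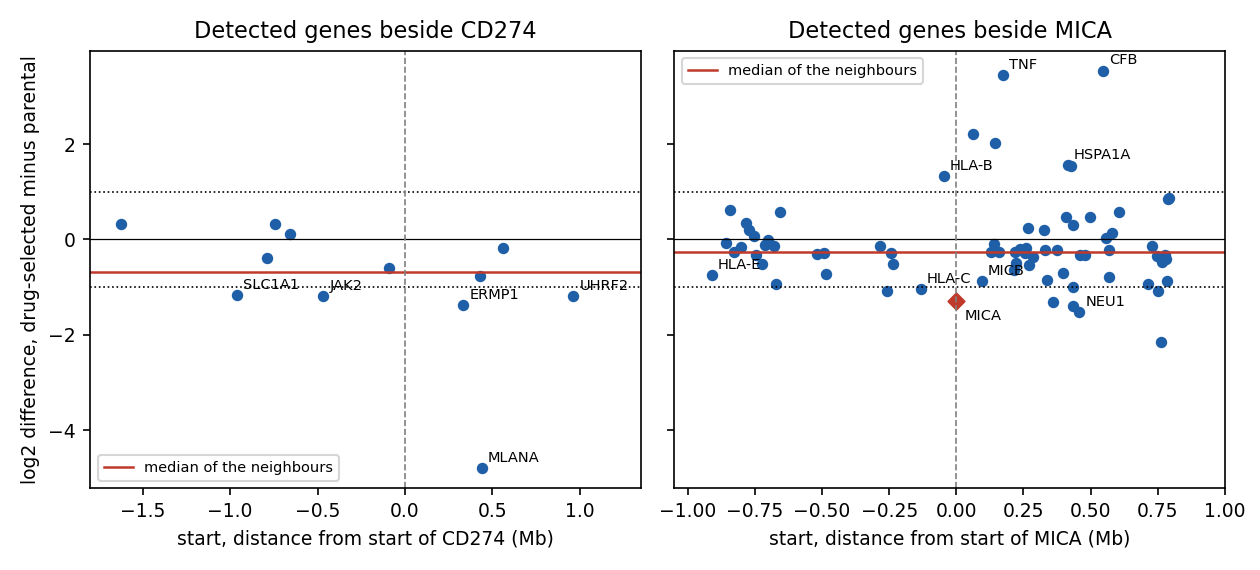
Log2 difference (drug-selected minus parental) of detected genes within 1 Mb of CD274 (left) and of MICA (right), against the distance of their start from the start of that gene; red lines are the medians of the neighbours, dotted lines mark 2-fold, and the diamond is MICA. Beside CD274, which was not detected, most genes lie below 0 with a median of -0.69, and beside MICA the median is -0.26 with TNF, CFB and HLA-B above 2-fold; genes detected on 1 array, such as TNF, are drawn without a bound.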

How the data were processed

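RNA of parental and drug-selected A2058 cells was hybridised by the authors to Illumina HumanHT-12 v4 arrays, 1 per group. The main table deposited by the authors holds a linear intensity for every probe, and a detection p-value against the negative controls of the same array. The methods name a background subtraction for each bead, and whether these values, with medians of 52.5 and 63.1, had it was not tested. A second deposited table holds intensity values normalized by the authors in an unnamed way, and served as an alternative.

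Background was corrected with limma 3.58.1 in R 4.3.3 (normexp, background from the detection p-values, offset 16), followed by quantile normalization and log2. Kept probes had a detection p-value under 0.05 on at least 1 array. For a probe that 1 array did not detect, the fold is a lower bound ("at least"), taken against that array's lowest detected signal (log2 4.89 parental, 4.79 drug-selected) or the probe's own signal, whichever was higher. Such a bound holds for the setting it was computed in. Calls and medians use the signals without bounds. Symbols came from the platform annotation (1 symbol for 30113 probes, several for 8), and positions from RefSeq on GRCh38.p14 by gene identifier (30074 matched). The members, lists and tests were chosen with earlier results of these data known. The rule for named genes took all members, the 3 largest differences past 2-fold in each direction of each list, the detected receptors and leukocyte markers, and the melanoma markers. Other genes were named after their values were seen. Folds are drug-selected over parental, since the methods word theirs by suspended and adherent cells, which the labels do not name. Scripts were tested on simulated arrays. Python 3.11.15, numpy 2.4.6, pandas 2.3.3 and matplotlib 3.10.9 were used.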

Additional observations from a re-analysis of the deposited data

How the results depend on the processing

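No paired analysis was possible because each group has 1 array. The number of members higher was 0 under all 13 alternatives. The number lower, 1 in the reported setting, was 0 with no normalization between the arrays, with median scaling and with a limit of 3-fold, 2 (MICA and MICB) with a limit of 1.5-fold, and 1 under the other 9. No normalization between the arrays was the only alternative that moved a member's log2 difference by more than the spread between probes, to 0.24 for CD276, 0.16 for PVR, 0.07 for CD47, -0.86 for MICA, -0.46 for MICB, 0.59 for ULBP2 and 0.30 for IDO1. It leaves the brighter array unscaled, with a median of 0.37 over all genes. Counts over all genes, 911 higher and 746 lower, moved to 1817 and 341 with no normalization, to 1402 and 434 with median scaling, to 1499 and 1332 with a normexp offset of 0, and the lower ones to 470 with an offset of 50 and 479 with no normexp. Beyond a limit of 1.5-fold they were 1965 and 2030, and beyond 3-fold 454 and 226. There were 11 alternatives at the 2-fold limit. Some of them change only which probes are kept or how they are combined. A gene with 1 probe, detected on both arrays, keeps its reported value in those, so they are no check of it. Of the 11, JAK2, BTN2A2, TYRP1, SLC1A1 and HLA-C were within 2-fold in 5, VSIR in 4, MMP14, COL3A1 and PDGFRA in 3, MICA, CTLA4, WARS1 and UHRF2 in 2, and CD200, QPRT, SLC7A5, THY1 and ERMP1 in 1. The other named genes past 2-fold stayed past it wherever they were measured. Calls were also gained: the NK-cell ligand list went from 1 to 3 higher and the receptor list from 0 to 2 higher with an offset of 0, and to 3 and 1 with no normalization. TIGIT was past 2-fold in 2 alternatives and HAVCR2 in 1. Signals near background, as for CD274, PDCD1LG2, LGALS9, IDO1 and ULBP1, limit what can be seen. For such a probe, a low RNA level and a probe that works poorly cannot be told apart.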
